A study of Mus musculus with 19 samples.

Results

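The non-collagen part of the extracellular matrix was examined in obstructed mouse kidneys: fibronectin and vitronectin, matricellular proteins, elastic fibre and microfibril proteins, latent TGF-beta binding proteins, proteoglycans, lysyl oxidases, laminins and other basement membrane proteins. The 57 genes were taken by symbol from a list, and all 57 were found among the 54532 genes of the count table. The RNA came from the whole left kidney of 19 male C57BL/6J mice, 8 to 9 weeks old, harvested on day 12 after unilateral ureteral obstruction (UUO), in which the ureter is tied and cut so that urine backs up and scar tissue forms. Wild-type (WT) mice and mice lacking CD5L, a protein that macrophages secrete (CD5L KO), were injected every day into the peritoneum with phosphate-buffered saline (PBS) or with 0.5 mg of recombinant CD5L (rCD5L). There were 5 kidneys each for WT + PBS, WT + rCD5L and CD5L KO + rCD5L, and 4 for CD5L KO + PBS. All of them were obstructed, so no level here can be set against a healthy kidney.

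In a scarring kidney, fibroblasts and pericytes turn into myofibroblasts and lay down collagen together with the proteins described here. Fibronectin forms the first scaffold, matricellular proteins change how cells grip it, microfibrils and elastin give recoil, small proteoglycans space the collagen fibrils, and lysyl oxidases crosslink collagen and elastin. Laminins, nidogens and perlecan build the basement membranes under tubules and capillaries, which most kidney cell types help to make.

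Kidneys gave 17917491 to 23847090 counts each. Cd5l had 0 counts in all 9 CD5L KO kidneys and 3 to 15 in the 10 WT kidneys. The 57 matrix genes together took 1.01% to 1.33% of the counts in WT + PBS, 1.14% to 1.31% in WT + rCD5L and 0.759% to 0.959% in CD5L KO + PBS. In CD5L KO + rCD5L, 4 kidneys lay between 0.831% and 1.03%, and replicate 4 stood apart at 0.297%. That kidney was the lowest of its group for 51 of the 57 genes, while replicate 3 was the highest for 37. Proximal tubule markers summed to 2939 FPKM in replicate 4 and to 232 to 444 FPKM in the other 4 kidneys of the group. FPKM are fragments scaled to library size and transcript length, so they give a level per gene length. Counts of genes that rest on this group are given below also without replicates 3 and 4.

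Sparc was the most abundant of the 57 genes, at a mean of 331 FPKM over the 19 kidneys, followed by Bgn at 183 FPKM, Sparcl1 at 91.5 FPKM, Dcn at 55.9 FPKM and Fn1 at 51.8 FPKM. Hmcn1, at 0.525 FPKM, and Vtn, at 0.288 FPKM, were the least abundant. Vtn rested on 4 to 33 counts per kidney.

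CD5L KO was first compared with WT, both given PBS, which asks how the loss of CD5L bears on the obstructed kidney. Of the 57 genes, 32 were lower in CD5L KO at an adjusted p under 0.05 (quasi-likelihood test of edgeR, Benjamini-Hochberg adjustment over all genes tested), and 0 were higher. Over all 17579 genes tested, 10.5% were called, 5.40% lower and 5.13% higher. The 40 matrix genes with an unadjusted p under 0.05 were all lower, against 14.0% of all genes. In all, 50 of the 57 had negative log2 fold changes, against 50.7% of all genes. The median log2 fold change of the 57 was -0.37 and that of all genes was 0.00. For 27 matrix genes every CD5L KO kidney lay below every WT kidney, a pattern that 8.09% of all genes showed. Every role group held called genes, from 8 of 10 laminins to 1 of 4 latent TGF-beta binding proteins.

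**Figure D1:**
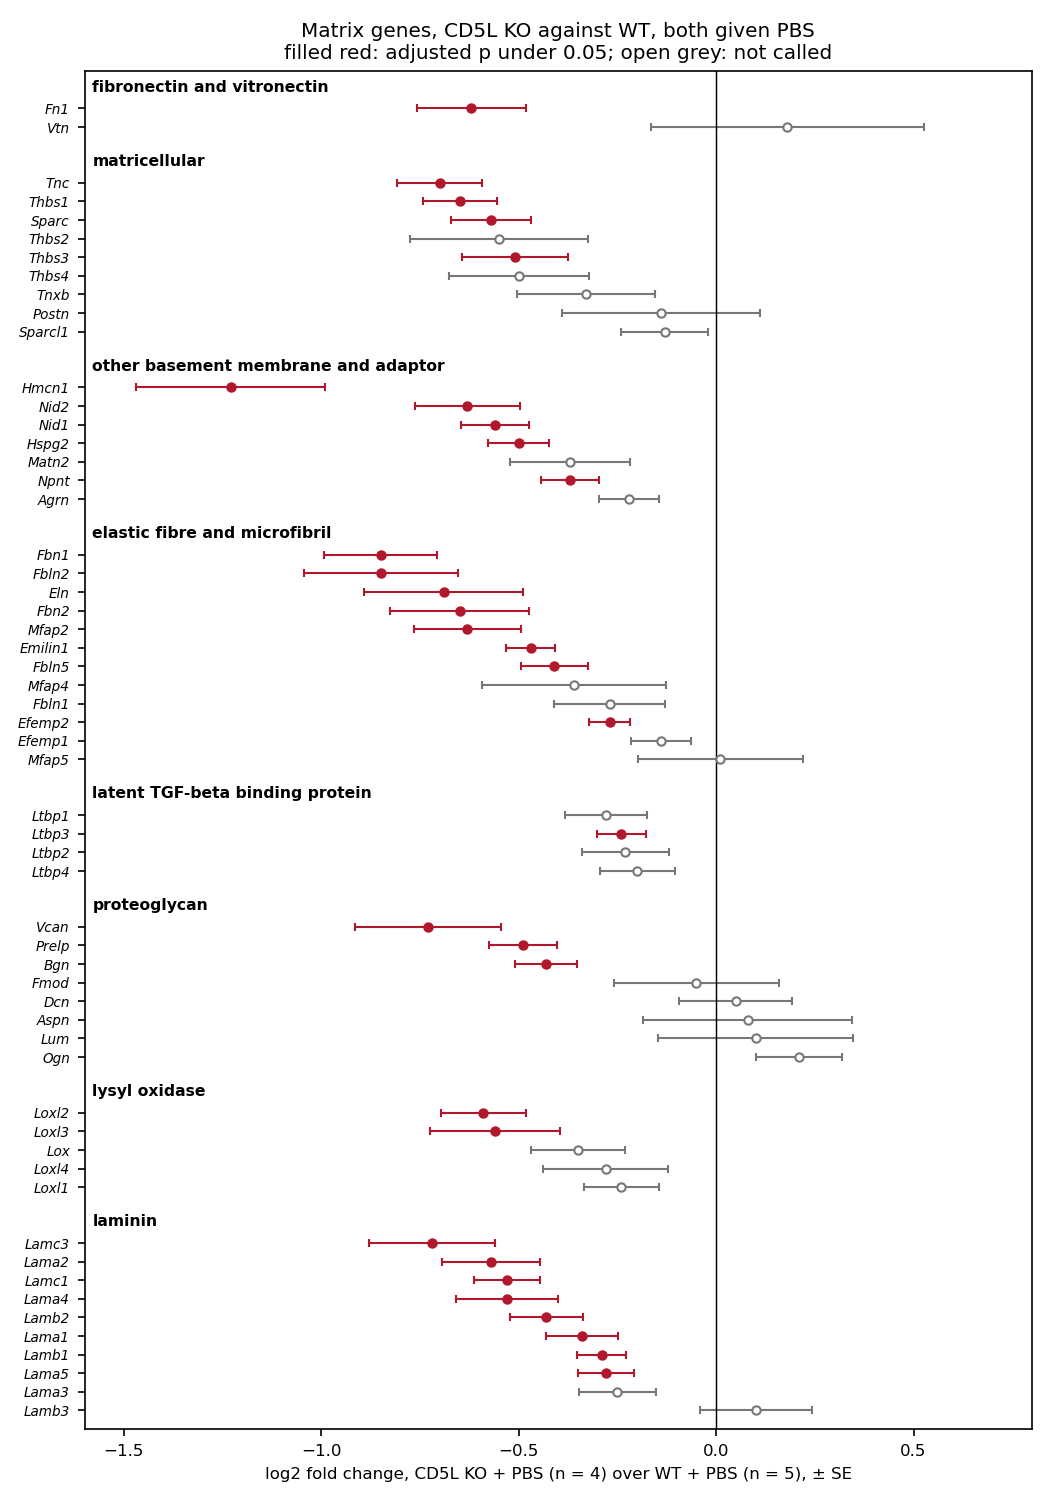
Log2 fold change of each of the 57 genes in CD5L KO + PBS (n = 4) over WT + PBS (n = 5), with its standard error as a bar, ordered by role. Filled red points are the 32 genes with an adjusted p under 0.05, all to the left of 0, and 7 genes lie to the right of 0 with none called.

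The sequence before the RefSeq start is shown for a few genes that were lower in CD5L KO and for one proteoglycan that was not, since the 57 genes moved together in part. Promoters from RefSeq (GRCm38.p6, the build of the count table) were at hand for 37 of the 57 genes, and 26 of these had 1 start. In 13 of the 26, the 250 bases before the start were free of GENCODE exons, and 7 of these 13 belong to called genes. The windows of the 3 called genes with the smallest adjusted p among them, Bgn (chrX:73483351-73483600, plus strand), Hmcn1 (chr1:150993436-150993685, minus strand) and Lama2 (chr10:27616943-27617192, minus strand), are followed by Ogn (chr13:49607765-49608014, plus strand), the most abundant uncalled proteoglycan among the 13. Capitals mark matches, on either strand, to AP-1 (TGANTCA), TEAD (GGAATG), Sp1 (GGGCGG) or the TATA box (TATAAA).
Bgn: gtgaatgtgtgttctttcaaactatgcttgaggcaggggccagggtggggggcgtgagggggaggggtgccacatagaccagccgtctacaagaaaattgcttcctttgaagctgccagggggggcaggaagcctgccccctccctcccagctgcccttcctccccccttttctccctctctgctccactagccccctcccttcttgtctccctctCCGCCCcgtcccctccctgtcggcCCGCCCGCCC
Hmcn1: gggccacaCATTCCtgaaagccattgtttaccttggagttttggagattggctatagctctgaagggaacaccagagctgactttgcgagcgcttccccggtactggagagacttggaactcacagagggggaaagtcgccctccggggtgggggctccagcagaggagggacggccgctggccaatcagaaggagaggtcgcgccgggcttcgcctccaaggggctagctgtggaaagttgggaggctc
Lama2: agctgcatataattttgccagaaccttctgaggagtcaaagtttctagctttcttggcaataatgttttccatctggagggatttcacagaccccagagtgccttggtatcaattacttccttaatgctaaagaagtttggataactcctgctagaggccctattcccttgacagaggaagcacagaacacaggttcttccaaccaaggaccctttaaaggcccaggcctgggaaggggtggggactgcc
Ogn: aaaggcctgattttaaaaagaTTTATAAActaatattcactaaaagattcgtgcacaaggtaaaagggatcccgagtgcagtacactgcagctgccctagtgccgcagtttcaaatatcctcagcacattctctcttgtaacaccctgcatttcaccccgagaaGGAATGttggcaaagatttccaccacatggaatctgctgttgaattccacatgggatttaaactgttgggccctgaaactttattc

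Bgn held 3 Sp1 matches near its start, Hmcn1 held 1 TEAD match and Lama2 held none of the 4 motifs. In the annotation of the count table Lama2 reaches to position 27619758 on the minus strand, so this window lies inside the gene there. Ogn held 1 TEAD match and 2 TATA box matches on opposite strands that overlap each other. The Sp1 letters stood in 13 of the 26 single-start windows, 9 of them among the 16 called genes, and in 32.7% of the 32851 promoters of the table. The AP-1 letters stood in 2 of the 26, both uncalled, and in 6.75% of all promoters. TEAD letters stood in 5 of the 26, 2 of them called, and in 12.6% of all promoters. TATA box letters stood in 4 of the 26, none of them called, and in 12.4% of all promoters.

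Fibronectin, the scaffold on which cells assemble other matrix, was lower in CD5L KO. Fn1 (chromosome 1, 71585520 to 71653200) stood at 50.0, 62.5, 44.3, 72.0 and 51.1 FPKM in WT + PBS and at 40.9, 40.1, 30.2 and 33.6 FPKM in CD5L KO + PBS. The groups did not overlap, and the log2 fold change was -0.62 ± 0.14 (SE, adjusted p = 0.0164), or 34.8% lower. Vitronectin, an adhesive protein of blood and matrix that the liver makes in bulk, had 0.269, 0.455, 0.288, 0.196 and 0.242 FPKM in WT + PBS and 0.162, 0.328, 0.424 and 0.415 FPKM in CD5L KO + PBS. The Vtn groups overlapped (log2 fold change 0.18 ± 0.35, adjusted p = 0.784).

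Of the 9 matricellular genes, 4 were lower (Sparc, Thbs1, Tnc and Thbs3), and the other 5 had negative fold changes that missed the threshold. Tenascin C, a protein of wounds and of the scar niche, had Tnc levels of 19, 24.0, 20.0, 24.6 and 20.8 FPKM in WT + PBS and of 15.1, 14.9, 11.4 and 11.5 FPKM in CD5L KO + PBS. Every CD5L KO kidney was below every WT kidney (log2 fold change -0.70 ± 0.11, adjusted p = 0.00530), a level 38.4% lower. Thrombospondin 1, which can release TGF-beta from its latent complex, had Thbs1 levels of 52.9, 60.3, 58.0, 74.8 and 59.6 FPKM in WT + PBS and of 36.9, 42.9, 39.2 and 35.8 FPKM in CD5L KO + PBS. These groups were also apart, with a log2 fold change of -0.65 ± 0.09 (adjusted p = 0.00497).

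Sparc, a collagen-binding protein needed for fibril assembly, was measured at 398, 454, 324, 438 and 349 FPKM in WT + PBS and at 262, 288, 260 and 238 FPKM in CD5L KO + PBS. The lowest WT kidney was above the highest CD5L KO kidney (log2 fold change -0.57 ± 0.10, adjusted p = 0.00720). Its relative Sparcl1, which endothelial and mural cells express strongly, had 98.4, 109, 95.7, 99.7 and 103 FPKM in WT + PBS and 101, 113, 73.3 and 80.3 FPKM in CD5L KO + PBS. For Sparcl1, 2 CD5L KO kidneys lay within or above the WT range and 2 lay below it (log2 fold change -0.13 ± 0.11, adjusted p = 0.508). Periostin, a common marker of fibrosis, had a log2 fold change of -0.14 ± 0.25 in Postn (adjusted p = 0.781), with WT kidneys from 7.08 to 16.9 FPKM. The remaining members were Thbs3 (log2 fold change -0.51, adjusted p = 0.0333), Thbs2 (-0.55, adjusted p = 0.142), Thbs4 (-0.50, adjusted p = 0.0931) and Tnxb (-0.33, adjusted p = 0.243).

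Elastic fibres consist of an elastin core within fibrillin microfibrils, joined by fibulins and emilins. Of these 12 genes, 8 were lower in CD5L KO and 0 higher. Fibrillin 1, the main microfibril protein, had Fbn1 levels of 13.8, 15.8, 11.5, 18.1 and 13.7 FPKM in WT + PBS and of 9.01, 9.58, 6.20 and 7.22 FPKM in CD5L KO + PBS. Its groups were apart, at a log2 fold change of -0.85 ± 0.14 (adjusted p = 0.00643), or 44.6% lower. Emilin1, a glycoprotein at the junction of elastin and microfibrils, had 37.5, 41.3, 38.9, 43.5 and 40.5 FPKM in WT + PBS and 31.4, 29.3, 27.5 and 27.6 FPKM in CD5L KO + PBS. The WT kidneys varied little and all exceeded the CD5L KO kidneys (log2 fold change -0.47 ± 0.06), and the adjusted p of 0.00470 was the smallest of the 57 genes.

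Fibulin 5 tethers elastin to cells and brings lysyl oxidase-like enzymes to it. Fbln5 stood at 34.9, 29.7, 35.3, 30.9 and 29.5 FPKM in WT + PBS and at 25.5, 26.8, 20.7 and 23.0 FPKM in CD5L KO + PBS, without overlap (log2 fold change -0.41 ± 0.09, adjusted p = 0.0129). Efemp2, or fibulin 4, which binds lysyl oxidase and tropoelastin, stood at 28.3, 31.2, 27.8, 30.3 and 29.2 FPKM in WT + PBS and at 23.4, 24.7, 24.9 and 23.7 FPKM in CD5L KO + PBS. Its change was small and even across kidneys, with no overlap (log2 fold change -0.27 ± 0.05, adjusted p = 0.00935). Elastin itself (Eln) had a log2 fold change of -0.69 (adjusted p = 0.0470) with groups that overlapped. Fbln2 (-0.85, adjusted p = 0.0183), Fbn2 (-0.65, adjusted p = 0.0356) and Mfap2 (-0.63, adjusted p = 0.0134) were lower without overlap. The 4 uncalled genes were Mfap4 (log2 fold change -0.36), Fbln1 (-0.27), Efemp1 (-0.14) and Mfap5 (0.01).

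Some latent TGF-beta binding proteins, though not every member of the family, hold inactive TGF-beta in the matrix. All 4 genes had negative log2 fold changes, from -0.28 to -0.20, with 1 called. Ltbp3 had 20.7, 21.8, 21.6, 24.2 and 20.3 FPKM in WT + PBS and 18.8, 17.8, 19.2 and 17.3 FPKM in CD5L KO + PBS. The gap between the groups was narrow but complete (log2 fold change -0.24 ± 0.06, adjusted p = 0.0297). Ltbp4 had 27.1, 23.5, 22.3, 23.3 and 20.8 FPKM in WT + PBS and 17.9, 19.3, 19.1 and 24.3 FPKM in CD5L KO + PBS, where 1 CD5L KO kidney lay inside the WT range (log2 fold change -0.20 ± 0.10, adjusted p = 0.192).

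The 8 proteoglycans were divided. Biglycan (Bgn), Prelp and versican (Vcan) were lower in CD5L KO, whereas decorin (Dcn), lumican (Lum), osteoglycin (Ogn) and asporin (Aspn) had positive and uncalled log2 fold changes of 0.05, 0.10, 0.21 and 0.08. The median of the group was 0.00. Biglycan, a collagen-binding proteoglycan that also signals through innate receptors when free, stood at 224, 225, 183, 200 and 192 FPKM in WT + PBS and at 149, 165, 146 and 142 FPKM in CD5L KO + PBS. No CD5L KO kidney reached the WT range (log2 fold change -0.43 ± 0.08, adjusted p = 0.00754). Decorin, its nearest relative and an inhibitor of TGF-beta, stood at 67.8, 78.2, 52.5, 64.3 and 47.5 FPKM in WT + PBS and at 67.7, 69.6, 48.9 and 68.4 FPKM in CD5L KO + PBS. All CD5L KO kidneys lay within the WT range (adjusted p = 0.865), and the sign of the small Dcn difference changed when single kidneys were left out.

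Prelp, which links basement membranes to the connective tissue beside them, had 30.4, 27.7, 26.5, 31.9 and 24.1 FPKM in WT + PBS and 19.3, 20.6, 17.6 and 21.9 FPKM in CD5L KO + PBS. These groups did not overlap (log2 fold change -0.49 ± 0.09, adjusted p = 0.00707). Ogn, whose promoter is printed above, had 33.4, 26.0, 26.5, 31.4 and 25.7 FPKM in WT + PBS and 35.7, 36.3, 25.9 and 33.5 FPKM in CD5L KO + PBS. For Ogn, 3 of 4 CD5L KO kidneys were above all WT kidneys and 1 was near the lowest of them (adjusted p = 0.232). Versican, a large proteoglycan of provisional matrix, had a log2 fold change of -0.73 (adjusted p = 0.0274) at levels from 0.997 to 2.69 FPKM in these 2 groups, and Fmod, which binds collagen fibrils, had one of -0.05 (adjusted p = 0.910).

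Among the 5 lysyl oxidases, Loxl2 and Loxl3 were lower, and Lox, Loxl1 and Loxl4 were not called. Loxl2, a crosslinking enzyme of basement membrane and fibrillar collagens, had 15.2, 17.9, 13.9, 16.8 and 13.3 FPKM in WT + PBS and 9.55, 12.4, 9.64 and 9.01 FPKM in CD5L KO + PBS. Its groups were apart by less than 1 FPKM (log2 fold change -0.59 ± 0.11, adjusted p = 0.00774). Lox, the founding enzyme of the family, had 24.3, 30.7, 23.1, 26.6 and 20.0 FPKM in WT + PBS and 20.2, 22.0, 19.6 and 15.9 FPKM in CD5L KO + PBS. The Lox groups overlapped at their edges (log2 fold change -0.35 ± 0.12, adjusted p = 0.0826).

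Loxl1, which crosslinks elastin, was the most abundant of the 5, at 32.9, 33.8, 27.7, 32.9 and 25.3 FPKM in WT + PBS and 28.3, 26.2, 25.2 and 22.7 FPKM in CD5L KO + PBS. The Loxl1 groups overlapped (log2 fold change -0.24 ± 0.09, adjusted p = 0.121). Loxl3 was called at an adjusted p of 0.0497 (log2 fold change -0.56), and the uncalled Loxl4 had a log2 fold change of -0.28.

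Laminins are heterotrimers of an alpha, a beta and a gamma chain, and 8 of the 10 chains were lower in CD5L KO. Lamc1, the gamma chain of most kidney laminins, had 16.9, 19.5, 16.6, 21.3 and 17.7 FPKM in WT + PBS and 12.4, 13.1, 11.4 and 13.8 FPKM in CD5L KO + PBS. Every CD5L KO kidney was below every WT kidney (log2 fold change -0.53 ± 0.08, adjusted p = 0.00542). The beta chain Lamb1 had 32.0, 34.5, 34.7, 39.3 and 34.6 FPKM in WT + PBS and 29.1, 28.5, 27.3 and 28.5 FPKM in CD5L KO + PBS, again apart (log2 fold change -0.29 ± 0.06, adjusted p = 0.0129).

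Lamb2, the beta chain of the mature glomerular basement membrane, had 23.6, 23.7, 22.6, 31.0 and 23.3 FPKM in WT + PBS and 17.7, 19.2, 16.7 and 19.6 FPKM in CD5L KO + PBS. The Lamb2 groups were apart, with 1 WT kidney well above the rest (log2 fold change -0.43 ± 0.09, adjusted p = 0.0142). The other called chains were Lamc3 (log2 fold change -0.72), Lama2 (-0.57), Lama4 (-0.53), Lama1 (-0.34) and Lama5 (-0.28). Lama3 (-0.25, adjusted p = 0.122) and Lamb3 (0.10, adjusted p = 0.700), chains of an epithelial laminin, were not called.

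Of the 7 other basement membrane and adaptor genes, 5 were lower. Nidogen 1, which bridges laminin and collagen IV, had Nid1 levels of 42.3, 40.1, 34.7, 44.3 and 39.6 FPKM in WT + PBS and of 27.0, 30.2, 23.1 and 27.6 FPKM in CD5L KO + PBS. Those groups were apart (log2 fold change -0.56 ± 0.09, adjusted p = 0.00530). Perlecan, a heparan sulphate proteoglycan of basement membranes, had Hspg2 levels of 14.3, 17.9, 15.9, 18.8 and 16.1 FPKM in WT + PBS and of 12.0, 11.7, 10.9 and 12.2 FPKM in CD5L KO + PBS, also without overlap (log2 fold change -0.50 ± 0.08, adjusted p = 0.00530).

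Agrin, the other heparan sulphate proteoglycan here and a component of the glomerular basement membrane, had Agrn levels of 47.7, 50.8, 42.6, 54.4 and 50.2 FPKM in WT + PBS and of 43.8, 40.3, 38.6 and 44.8 FPKM in CD5L KO + PBS. The Agrn groups overlapped because of the lowest WT kidney (log2 fold change -0.22 ± 0.08, adjusted p = 0.0857). Hemicentin 1, a very large fibulin-related protein, showed the largest fitted difference of the 57 at a low level. Hmcn1 had 0.770, 0.596, 0.618, 1.05 and 0.539 FPKM in WT + PBS and 0.282, 0.364, 0.168 and 0.386 FPKM in CD5L KO + PBS. It was 57.4% lower without overlap (log2 fold change -1.23 ± 0.24, adjusted p = 0.00955). Over all 19 kidneys, including those given rCD5L, Hmcn1 had 42 to 536 counts per kidney. Nid2 had 5.36, 7.90, 6.71, 8.52 and 6.25 FPKM in WT + PBS, above all 4 CD5L KO + PBS kidneys. Nid2 (log2 fold change -0.63) and the integrin ligand Npnt (-0.37) were also called, and Matn2 (-0.37, adjusted p = 0.143) was not.

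**Figure D2:**
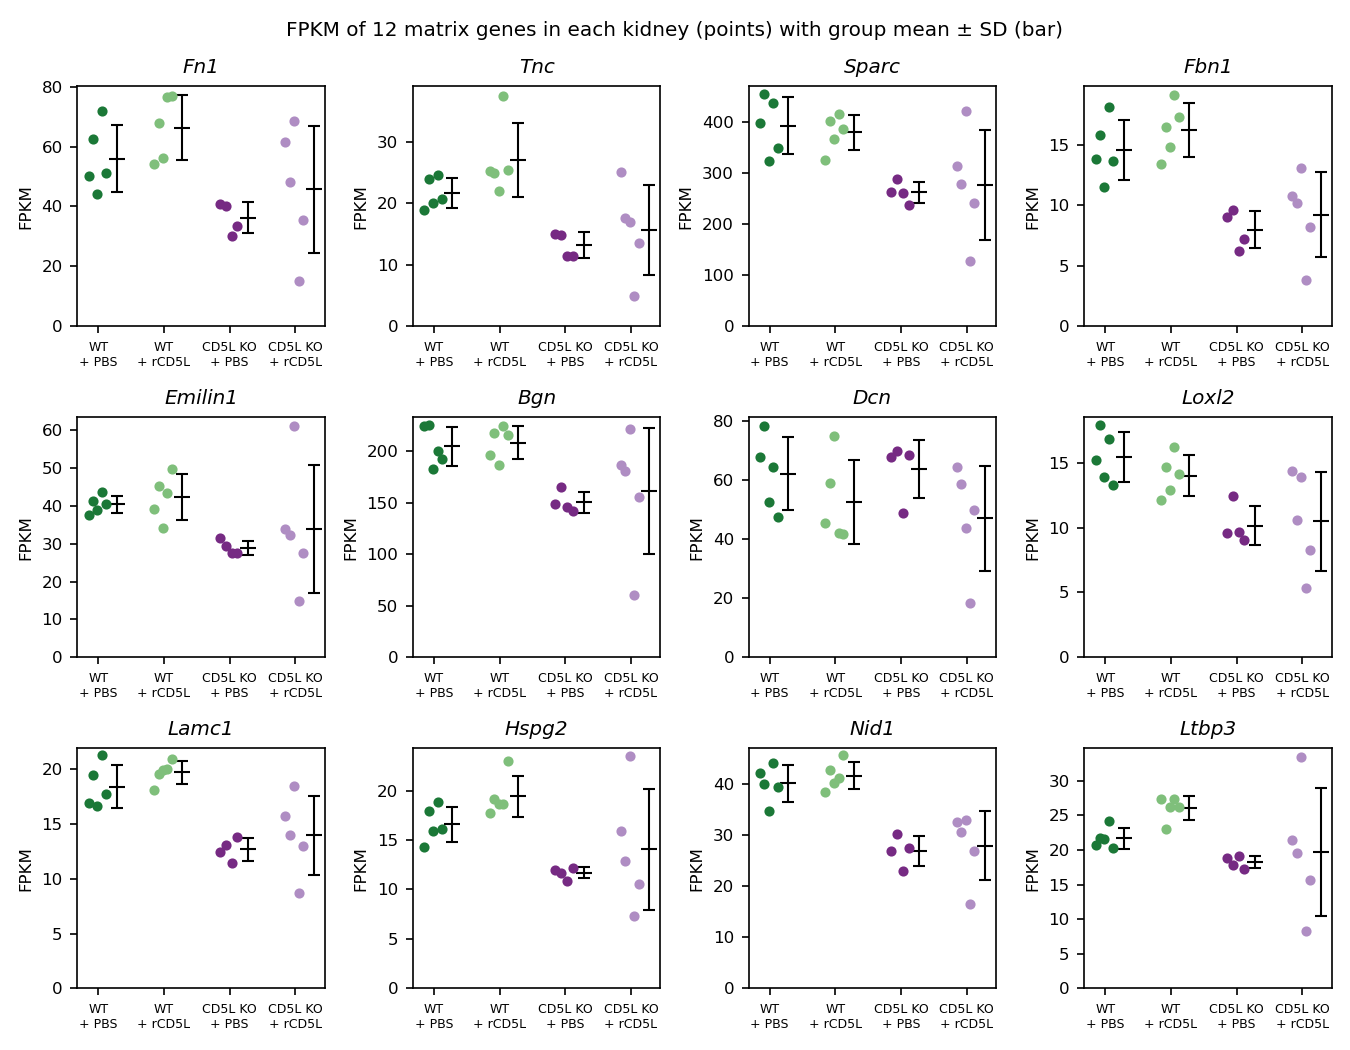
FPKM of 12 of the genes in each kidney, with 1 point per kidney and the group mean with its SD as a bar, for WT + PBS, WT + rCD5L, CD5L KO + PBS and CD5L KO + rCD5L. For Sparc the 4 CD5L KO + PBS kidneys sit between 238 and 288 FPKM, below all WT kidneys, whereas for Dcn they sit within the WT + PBS range of 47.5 to 78.2 FPKM, and 1 CD5L KO + rCD5L kidney is the lowest in most panels.

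Several values moved with these differences. Among 7 fibroblast and pericyte markers, 4 were lower in CD5L KO + PBS (Pdgfra, Pdgfrb, Cspg4 and Meox1), and the list summed to 78.8 to 93.2 FPKM in WT + PBS and to 61.8 to 73.9 FPKM in CD5L KO + PBS. Of 6 endothelial markers 3 were lower (Pecam1, Cdh5 and Flt1), with sums of 78.7 to 89.9 and of 64.2 to 73.6 FPKM. The 5 myofibroblast and smooth muscle markers included Acta2 as the only called one (log2 fold change -0.74), with sums of 181 to 310 and of 126 to 195 FPKM. None of the 7 proximal tubule markers was called, with sums of 188 to 420 and of 164 to 343 FPKM. All 5 macrophage markers had negative log2 fold changes (median -0.37) and Csf1r was called, with sums of 105 to 136 and of 68.0 to 111 FPKM. All 5 podocyte markers were below 0 too (median -0.19) and Wt1 was called, with sums of 83.8 to 98.6 and of 72.8 to 86.0 FPKM. The 5 urothelial markers had positive log2 fold changes (median 0.79), none called, with sums of 9.82 to 74.0 and of 72.4 to 125 FPKM. The 3 adipocyte markers were also above 0 (median 0.77), none called, with sums of 5.67 to 20.3 and of 9.75 to 21.6 FPKM. The lists for thick ascending limb, collecting duct, T cells, B and plasma cells and epididymis had 0 called markers. No marker of the lists whose sums are given was at 0 in all kidneys. The part of cell makeup in the matrix differences was not tested, and in bulk RNA fewer cells of a type and less RNA per cell cannot be told apart. Longer genes had more negative log2 fold changes in this comparison (Spearman rho -0.277 over all genes and -0.406 over the 57, a description across genes that share libraries). With a gene length offset in the fit, 23 of the 57 were called lower at a median of -0.35, against 3.54% of all genes.

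Reads that fall in exons shared with a gene on the opposite strand are uncertain, since the strand setting of the counting is not given in the sources used here. This touches Efemp2, Ltbp3, Nid2, Thbs3, Loxl3 and Mfap4, whose neighbours had 20.2% to 300% of their counts. Of the 32 called genes, 22 were called whichever single kidney was left out. When all 19 kidneys were fitted together, 0 of the 57 were called (0.0650% of all genes), while their median log2 fold change was -0.36, against -0.37 as reported. Once CD5L KO + rCD5L replicates 3 and 4 were left out of that fit, 30 were called (12.2% of all genes), at a median of -0.37.

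Of 47 further genes of matrix glycoproteins, proteoglycans and their partners, 43 were tested, 10 were lower in CD5L KO + PBS and 2 were higher, against 5.40% and 5.13% of all genes, at a median log2 fold change of -0.16. Ctgf, a matricellular target of TGF-beta, had the most negative value of the called ones (log2 fold change -0.68 ± 0.14, adjusted p = 0.0104), and Gpc6, Ecm1, Smoc2, Vwf, Vwa1, Mmrn2, Fras1, Fbln7 and Pcolce ran from -0.57 to -0.25. Spp1, which encodes osteopontin, was higher (log2 fold change 0.51 ± 0.11, adjusted p = 0.0143), as was the tubular basement membrane gene Tinag (0.42 ± 0.10, adjusted p = 0.0215). Among 13 inputs to matrix production, 4 were lower: Ctgf, Acta2, Pdgfrb and the receptor Tgfbr2. Tgfb1, the ligand, had a log2 fold change of 0.03 ± 0.07 (adjusted p = 0.843).

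rCD5L was then compared with PBS within each genotype, which asks whether the injected protein changed the matrix genes. In CD5L KO mice 0 of the 57 genes were called by edgeR and 0 by DESeq2, against 0% and 0.0582% of all genes tested, and 1 had an unadjusted p under 0.05, as did 2.87% of all 17467 genes. Of the 57, 29 were higher and 28 lower, at a median log2 fold change of 0.00. The 1 gene was Nid2, with 4.57, 3.58, 4.66 and 5.02 FPKM in CD5L KO + PBS and 5.91, 4.72, 7.84, 5.96 and 5.02 FPKM in CD5L KO + rCD5L, an overlapping pair of groups (log2 fold change 0.40 ± 0.17, adjusted p = 0.897). The spread within CD5L KO + rCD5L was wide. Emilin1 there ran over 33.9, 32.4, 61.1, 14.9 and 27.5 FPKM, and Fn1 over 61.4, 48.1, 68.4, 15.1 and 35.4 FPKM. In both genes replicate 3 was the highest and replicate 4 the lowest. All 7 proximal tubule markers had positive log2 fold changes in this comparison (median 1.34, 1 with an unadjusted p under 0.05). Their sum was 2939 FPKM in replicate 4 and 232 to 444 FPKM in the other CD5L KO + rCD5L kidneys, against 164 to 343 FPKM in CD5L KO + PBS. All 5 urothelial markers had negative log2 fold changes (median -0.49, 1 with such a p). The part of both lists in the matrix values was not tested.

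A few genes did not follow replicate 4 of CD5L KO + rCD5L downwards. Fbln5 stood at 25.6, 24.7, 31.9, 27.5 and 25.8 FPKM in that group, with replicate 4 in second place. Lama1 was highest in replicate 4, at 2.23 FPKM against 1.13 to 1.67 FPKM in the others. Without replicates 3 and 4, 0 of the 57 genes were called in this comparison as well, at a median log2 fold change of 0.07.

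**Figure D3:**
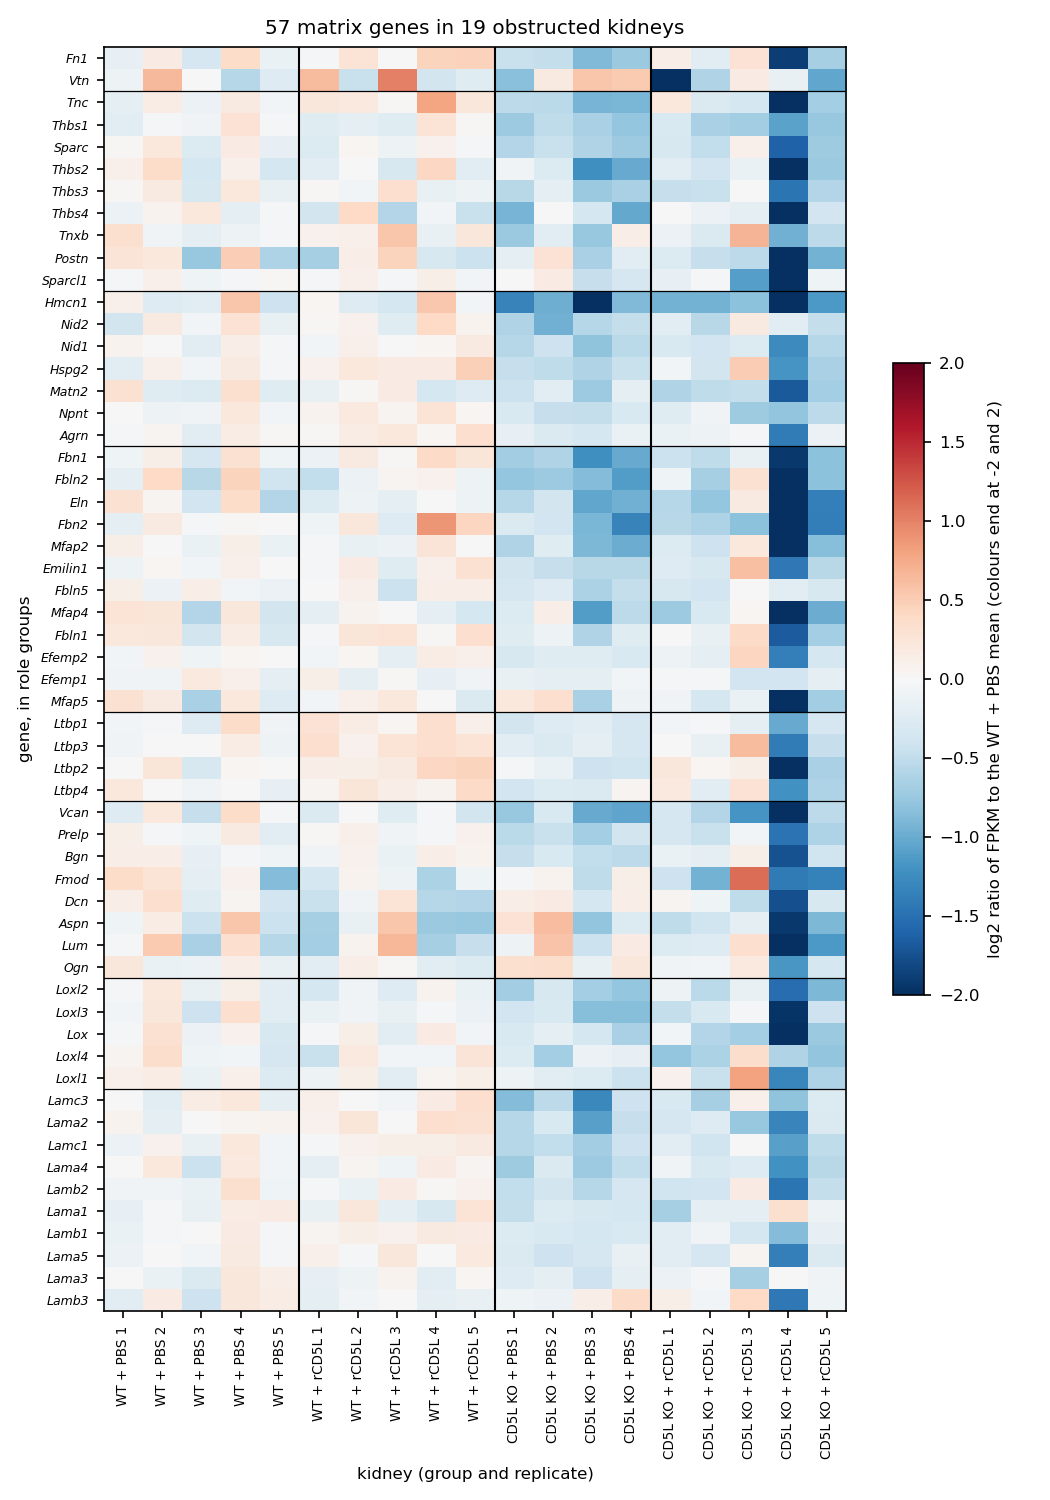
Log2 ratio of FPKM to the WT + PBS mean for the 57 genes (rows, in role groups) in the 19 kidneys (columns, by group), with blue for lower and red for higher and colours that end at -2 and 2. The CD5L KO + PBS columns are blue for most genes, at median log2 ratios of -0.60 to -0.29, and the column of CD5L KO + rCD5L replicate 4 is the darkest, at a median of -1.45.

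In WT mice 0 of the 57 genes were called by edgeR for rCD5L against PBS, and 7 had an unadjusted p under 0.05, all higher under rCD5L. Over all 17455 genes tested, 0% were called and 16.0% had such a p, with 8.31% on the higher side. DESeq2 called 1 of the 57, Ltbp3, and 4.15% of all genes. The 7 were Tnc, Ltbp2, Ltbp3, Ltbp4, Lama2, Lamb1 and Hspg2, with log2 fold changes of 0.12 to 0.32 and adjusted p of 0.107 to 0.298. Ltbp3 went from the WT + PBS values above to 27.4, 23.1, 26.3, 27.4 and 26.3 FPKM in WT + rCD5L, and the groups overlapped at 1 kidney on each side (log2 fold change 0.26 ± 0.06, adjusted p = 0.107 by edgeR and 0.00980 by DESeq2). The 4 latent TGF-beta binding proteins had a median log2 fold change of 0.22 and the 8 proteoglycans one of -0.15, with 2 of the 8 above 0. For Tnc the WT + rCD5L values were 25.3, 24.9, 22.1, 37.5 and 25.5 FPKM, where 1 kidney stood well above the rest (log2 fold change 0.32 ± 0.12, adjusted p = 0.213). Among cell type markers in WT, none called, all 7 of the proximal tubule had negative log2 fold changes for rCD5L (median -0.44, 4 with an unadjusted p under 0.05), as did 5 of 6 of the endothelium (median -0.11, 3 with such a p) and all 5 of myofibroblasts and smooth muscle (median -0.34, 1 with such a p). All 4 T cell markers had positive ones (median 0.60, 1 with such a p), and the part of these markers in the matrix values was not tested.

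**Figure D4:**
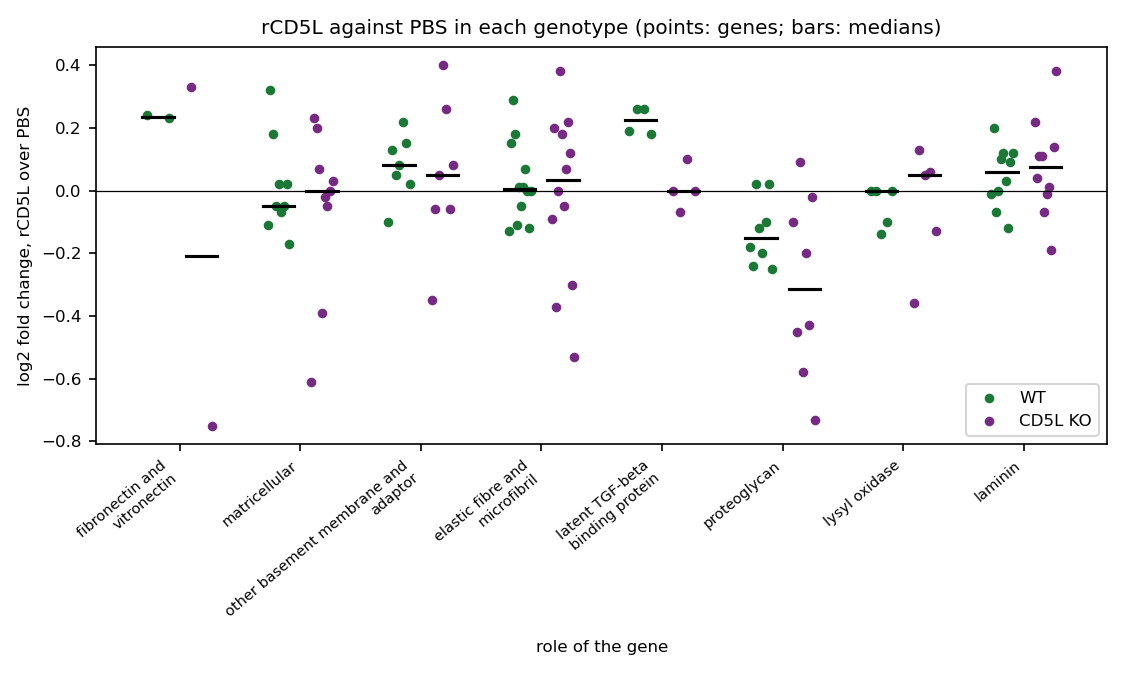
Log2 fold change of rCD5L over PBS for each of the 57 genes by role, in WT (green) and CD5L KO (purple), with the median of each role as a bar. Points lie on both sides of 0 in both genotypes and none is called by edgeR; the latent TGF-beta binding proteins have a median of 0.22 in WT, and the CD5L KO points spread from -0.75 to 0.40.

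CD5L KO and WT mice that both received rCD5L shared no kidney with the PBS comparison, so they give a reading of the genotype difference in other mice. The treatment differs, since these CD5L KO mice were given the protein they lack. This is therefore not a repeat of the comparison of CD5L absent against CD5L present. Of the 57 genes, 56 were lower in CD5L KO + rCD5L, at a median log2 fold change of -0.45, where 51.1% of all genes were below 0 and their median was -0.01. None passed the threshold in edgeR (0% of all 17360 genes did), 18 had an unadjusted p under 0.05, all lower, against 6.80% of all genes, and DESeq2 called 5, against 1.07% of all genes. All 32 genes called under PBS were lower under rCD5L too, 15 with an unadjusted p under 0.05 and 8 with no overlap between the groups, where 3.60% of all genes had none in that direction. Without replicates 3 and 4 of CD5L KO + rCD5L, 53 of the 57 were lower, and so were all 32 called under PBS. Of these 32, 31 had an unadjusted p under 0.05, against 10.7% of all genes that were lower with such a p. Without replicate 4 alone, 16 of the 32 had such a p, against 7.41% of all genes on the lower side. Replicates 3 and 4 were picked after seeing the data, in which they stood out for these same genes. Replicate 3 was the highest and replicate 4 the lowest of the group for most of the 57. Leaving both out narrows the spread of the genes then tested, so the 31 is not an independent result. Of the 25 genes not called under PBS, 24 had negative log2 fold changes, among them Dcn, Lum, Ogn and Aspn.

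No cell type marker was called in this comparison by edgeR with all kidneys. All 7 proximal tubule markers were above 0 in CD5L KO + rCD5L (median log2 fold change 1.70, 6 with an unadjusted p under 0.05), with sums of 155 to 250 FPKM in WT + rCD5L and of 232 to 2939 FPKM in CD5L KO + rCD5L. Without replicates 3 and 4 their median was 0.14, and 1 was called higher. All 7 fibroblast and pericyte markers were below 0 (median -0.33, 1 with such a p), with sums of 89.1 to 102 and of 33.7 to 90.3 FPKM, and without replicates 3 and 4 their median was -0.41, with 1 called lower. Of 6 endothelial markers 5 were below 0 (median -0.23, 3 with such a p), with sums of 72.4 to 79.7 and of 59.9 to 70.2 FPKM, and 3 were called lower without these 2 kidneys, at a median of -0.23. All 5 podocyte markers (median -0.38, 4 with such a p) and all 5 macrophage markers (-0.46, none with such a p) were below 0 as well, and both medians were -0.21 without these 2 kidneys. All 5 myofibroblast and smooth muscle markers were below 0 (median -0.37, 2 with such a p), while all 5 urothelial (0.41) and all 3 adipocyte markers (0.94) were above 0, and their medians were -0.20, 0.66 and 0.81 without these 2 kidneys. Of 3 thick ascending limb markers 1 was then called lower, at a median of -0.46, against 0.27 with all kidneys. The part of these marker differences in the matrix values was not tested.

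Hmcn1 stood at 0.731, 0.596, 0.562, 1.04 and 0.687 FPKM in WT + rCD5L and at 0.372, 0.371, 0.403, 0.117 and 0.323 FPKM in CD5L KO + rCD5L. All 5 CD5L KO kidneys were below all WT kidneys (log2 fold change -1.17 ± 0.28, adjusted p = 0.259). Nid1 stood at 38.6, 42.9, 40.2, 41.3 and 45.7 FPKM in WT + rCD5L and at 32.7, 30.7, 33.1, 16.6 and 27.0 FPKM in CD5L KO + rCD5L. These too were apart, with replicate 4 far below the other CD5L KO kidneys (log2 fold change -0.56 ± 0.16, adjusted p = 0.259). Fbn1 had 13.4, 16.5, 14.8, 19.1 and 17.3 FPKM in WT + rCD5L and 10.8, 10.2, 13.1, 3.81 and 8.22 FPKM in CD5L KO + rCD5L, narrowly apart (log2 fold change -0.80 ± 0.25, adjusted p = 0.259).

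Other genes overlapped. Sparc had 326, 402, 367, 416 and 386 FPKM in WT + rCD5L and 313, 279, 422, 128 and 241 FPKM in CD5L KO + rCD5L. Bgn had 196, 218, 187, 224 and 216 FPKM in WT + rCD5L and 187, 181, 222, 60.9 and 156 FPKM in CD5L KO + rCD5L. In both genes replicate 3 reached the WT range, and for Sparc it exceeded every WT + rCD5L kidney. Replicate 1 of CD5L KO + rCD5L, at 187 FPKM of Bgn, also equalled the lowest WT + rCD5L kidney at this precision. With replicates 3 and 4 both left out, a setting chosen after seeing the values of these genes, 23 of the 57 were called, all lower. Over all 18012 genes tested 3.58% were called, and 20 of these 23 were among the 32 called under PBS. The median log2 fold change was then -0.42, with Hmcn1 at -1.02 ± 0.18 (adjusted p = 0.0198), Fbn1 at -0.72 ± 0.11 (adjusted p = 0.0125), Sparc at -0.44 ± 0.09 (adjusted p = 0.0274) and Bgn, uncalled, at -0.25 ± 0.08 (adjusted p = 0.0831). Dcn then stood at 0.14 ± 0.17 (adjusted p = 0.686), on the other side of 0 from its value with all kidneys. Leaving out replicate 4 alone gave 0 called. With all 19 kidneys in 1 fit, 9 of the 57 were called (7.00% of all genes), and 19 were called (4.69% of all genes) with 17 kidneys in 1 fit.

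**Figure D5:**
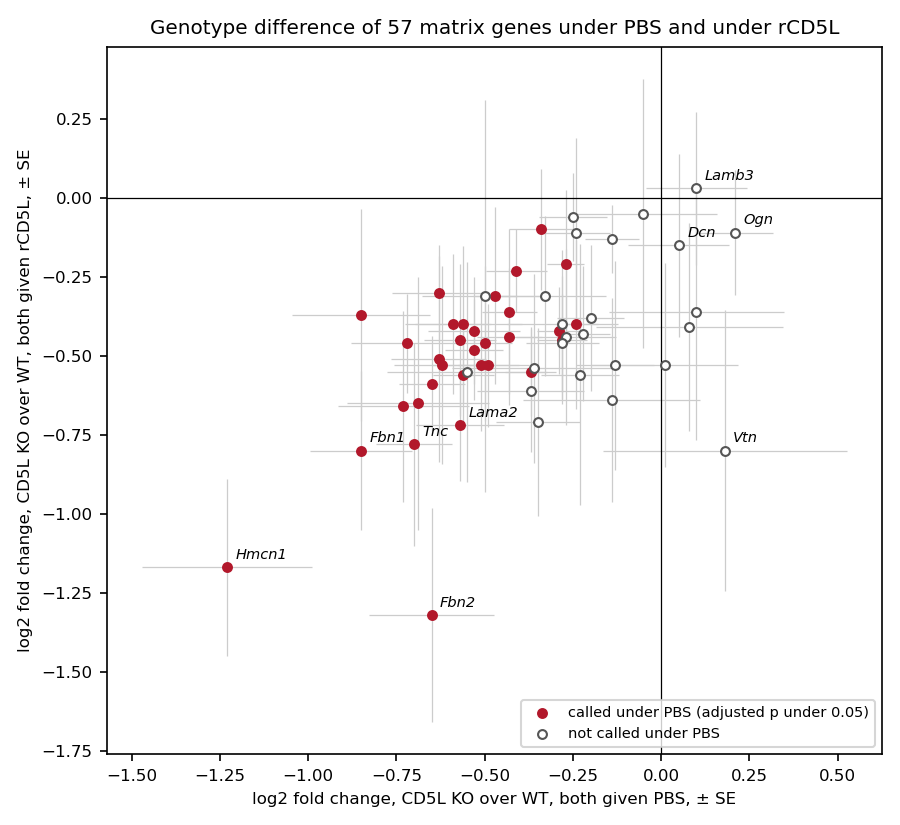
Log2 fold change of CD5L KO over WT under PBS (horizontal, n = 4 against 5) and under rCD5L (vertical, n = 5 against 5) for the 57 genes, with standard errors as grey bars and red for the 32 genes called under PBS. All red points lie below 0 on both axes, Hmcn1 and Fbn2 lie lowest, and 1 gene, Lamb3, is above 0 under rCD5L.

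Whether rCD5L acted unlike in the 2 genotypes was tested as an interaction over all 4 groups. In edgeR 0 of the 57 genes were called and 0 had an unadjusted p under 0.05, against 0% and 6.25% of all 18454 genes tested. DESeq2 called 0 of the 57 as well, without a share of all genes to set beside it. The log2 interaction terms of the 57 ran from -0.97 to 0.50 with a median of 0.02. Vtn was at the lower end (-0.97 ± 0.58, adjusted p = 0.731). Without CD5L KO + rCD5L replicates 3 and 4 the count was 0 as well and the median 0.02. No cell type marker was called with all kidneys. All 7 proximal tubule markers had positive terms (median 1.81, all with an unadjusted p under 0.05), as did all 3 of the thick ascending limb (median 0.68, 1 with such a p). All 4 T cell and all 5 urothelial markers had negative terms (medians -0.42 and -0.36, none with such a p). The part of these markers in the matrix values was not tested. The biological coefficient of variation of the fit to all 19 kidneys was 22.1%, against 12.6% for the genotype comparison under PBS.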

How the data were processed

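Bulk RNA-seq of 19 obstructed kidneys was analysed in the 4 groups that the sample labels give. The authors deposited raw counts per gene, made by trimming with Trimmomatic, alignment to GRCm38 with HISAT2 and counting with featureCounts (versions not given in the sources used here), and FPKM values of the same genes, whose library sizes had been scaled between kidneys before deposit. Levels are the deposited FPKM, and tests used the counts. Counts were fitted over the whole table with edgeR 4.0.16 in R 4.3.3 (TMM factors, low genes removed by filterByExpr at a minimum of 10, quasi-likelihood test) with the 2 groups compared, or all 4 for the interaction. Benjamini-Hochberg adjusted p-values under 0.05 were called. The edgeR and DESeq2 tests were run on simulated counts for CD5L KO against WT under PBS and for rCD5L against PBS in CD5L KO. The other settings were not checked in this way. Alternatives used DESeq2 1.42.0, limma 3.58.1 on log2(FPKM + 1) and log2(FPKM + 0.1), other factors and filters, a gene length offset (lowess span 0.3) and fits without single kidneys.

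The 57 genes, their roles, the marker lists and the other matrix genes were chosen with earlier results of these data known. Values in every kidney of the PBS groups, and of the rCD5L groups for part of these genes, are given for the 12 called genes with the smallest adjusted p and for the 2 most abundant genes of each role, and for Hmcn1, Ogn and Nid2, added after their values were seen. One gene of the list of inputs to matrix production is not reported here. Symbols of the count table were used, so Ctgf, Cyr61 and Nov stand for Ccn2, Ccn1 and Ccn3. Promoters are RefSeq's for GRCm38.p6, and the last 50 bases of each entry, after the start, were left off. The total of 17917491 to 23847090 counts per kidney sets the precision. A count of 0 allows up to 3 counts, for counting error only. Labels call the samples biological replicates. In 36 within-group pairs, the chi-square divided by its degrees of freedom was at least 6.63, so no pair looked like repeat deposits of 1 library. Columns without a sample numbered 0.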

Additional observations from a re-analysis of the deposited data

Results flagged for a closer look

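In groups of 4 or 5 kidneys, single values were compared with Dixon's critical value at 95% for the 24 genes named by rule in 4 groups, and for the share of counts. Chance singles out about 1 in 20 groups, and 7 of the 96 gene and group pairs were singled out here. Lamb2 in WT + PBS replicate 4 was 31.0 FPKM, with the next kidney at 23.7 FPKM. In WT + rCD5L, Tnc stood at 37.5 FPKM in replicate 4 (next 25.5), Fbln5 at 23.9 FPKM in replicate 3 (next 32.4), Ltbp3 at 23.1 FPKM in replicate 2 (next 26.3) and Hspg2 at 23.0 FPKM in replicate 5 (next 19.2). Dcn in CD5L KO + PBS replicate 3 was 48.9 FPKM, with the next kidney at 67.7 FPKM. In CD5L KO + rCD5L replicate 4, Agrn was 18.7 FPKM (next 44.7), and the 57 genes took 0.297% of the counts (next 0.831%). No interaction of genotype and rCD5L passed the threshold.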

How the results depend on the processing

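The 32 genes lower in CD5L KO under PBS numbered 23 to 39 under every other setting except 2: all 19 kidneys in 1 fit (0) and a log2 fold change of at least 1 as well (1, Hmcn1). DESeq2 called 35 (9.10% of all genes were called lower), RLE factors 32 (5.29%), FPKM with limma 27 at either pseudocount (4.68% and 4.71%), the gene length offset 23, 17 kidneys in 1 fit 30, and fits without 1 kidney 23 to 35 (2.96% to 6.08%). For Eln, Fbn2, Lama1, Lama4, Lama5, Loxl3, Ltbp3, Thbs3 and Vcan the call was lost in 7 to 13 of 19 settings. Under rCD5L the genotype comparison called 0 as reported, 5 with DESeq2, 9 with all 19 kidneys in 1 fit (7.00% of all genes), 19 with 17 kidneys in 1 fit (4.69%) and 23 without CD5L KO + rCD5L replicates 3 and 4. The fits without these 2 kidneys were added after seeing the data, in which both stood out for these same genes. For rCD5L in WT, DESeq2 called 1. The cause of these differences was not tested. Leaving out any single kidney gave 0 called for the genotypes under rCD5L, for rCD5L in either genotype and for the interaction. With at least 10 counts required in every kidney, Vtn could not be tested.

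The direction of Dcn under PBS changed from 0.05 to -0.03 with the replicate block, to -0.01 without WT + PBS replicate 3 and to -0.03 without WT + PBS replicate 5, and fits without single kidneys gave -0.03 to 0.16. With the replicate number as a block, 39 of the 57 were called under PBS (6.21% of all genes were called lower) and 0 in the other comparisons. Same-numbered kidneys correlated at -0.181 to 0.181, so the numbers were not taken to pair the kidneys. Depth limits Vtn most, at 4 to 33 counts per kidney.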
